A study of Homo sapiens with 10 samples.

Results

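The eukaryotic translation initiation factors are the proteins that load the initiator tRNA and the mRNA onto the ribosome and place it at the start codon. Here they were taken as all bead array probes whose annotated gene symbol starts with EIF and a digit, without the eIF2 kinases, that were detected on at least 1 of 10 arrays. Of 52 such probes for 46 genes, 45 probes for 42 genes were kept, among 14018 kept probes of 24105 in all (10601 genes with a symbol). The kept probes covered the genes with an EIF1 symbol, which are EIF1, EIF1AD, EIF1AX and EIF1B (4 probes). They also covered eIF2 and related factors (5), its exchange factor eIF2B (6), eIF3 (12) and the eIF4 group with its inhibitors (13). The others were for EIF5 (2), EIF5A (2) and EIF5B (1).

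The arrays measured total RNA of MDA-MB-435, a human melanoma cell line, in 5 groups of 2 biological duplicates each. Hepatocyte growth factor (HGF) was given for 1 h, for 6 h or for 24 h in 3 of the groups, the cells of another were transduced with integrin beta-4 (ITGB4) so as to raise its level, and untreated cells of the same line formed the last group. All groups come from 1 established line, and the labels name no empty-vector control for the transduced cells. HGF acts through the receptor MET and drives growth and motility.

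Initiation starts when eIF2 brings the initiator tRNA to the small ribosomal subunit, where eIF1, eIF1A, eIF3 and eIF5 also bind. The cap-binding complex eIF4F, made of the cap-binding protein EIF4E, the scaffold EIF4G1 and the helicase EIF4A, recruits the mRNA. Growth factors act on this step through mTOR, which releases EIF4E from inhibitors such as EIF4EBP1, while stress kinases slow eIF2. Both are known mainly as control of the proteins, and the arrays measured only the RNA.

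Per array, 42.4% to 49.4% of the probes were detected, and 42 to 44 of the 45 initiation factor probes. The lowest bead count behind an initiation factor signal was 8, and the median per probe ran from 17 to 44. ITGB4 rose by 6.56 ± 0.17 (SE) on the log2 scale in the transduced cells. MET lay near the detection limit and was detected on 6 of 10 arrays. Of 8 melanocyte markers 7 were kept, and TYRP1 had signals of 6886 to 11347. Of the epithelial, fibroblast and immune markers, EPCAM, CDH1, KRT19, COL1A1, COL1A2, COL3A1, CD3E and CD14 were detected on 0 of 10 arrays. KRT18 (318 to 569), DCN (214 to 284) and LUM (278 to 688) were detected on 10 arrays, KRT8 on 9 and PTPRC on 5. Replicate 1 of the untreated cells and of each HGF time gave low detection scores for undetected probes and the other 6 arrays high ones. These sets are called the low-score and the high-score arrays, and the main differences are also given inside each. For the untreated and HGF groups this sets 1 array against 1 array. The 2 values average to the main difference and do not repeat it independently. The processed value table of ITGB4 replicate 2 did not match its scanner table (Spearman 0.968, against 1 for the other 9 arrays).

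Signals below are quantile-normalised scanner intensities in arbitrary units, with a detection limit of 89.6. Signals of different probes cannot be set against each other. Differences are log2 differences between group means with the standard error of a limma fit over all probes and arrays (n = 2 arrays per group). The call rule was an adjusted p under 0.05, by Benjamini-Hochberg over all 14018 probes of a comparison. The p-values rest on the spread between duplicates, pooled over the 5 groups and moderated by the fit towards that of all probes. The prior from all probes had 8.16 degrees of freedom, against 5 from the duplicates of a probe.

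Of the 7 comparisons, calls of initiation factors were found in the 3 that set the 6 h arrays against untreated cells or another HGF time, for 6 genes. Higher at 6 h in at least 1 of these were the cap-binding protein EIF4E, the scaffolds EIF4G1 and EIF4G2, the GTPase activator EIF5 and the eIF3 subunit EIF3J. The inhibitor EIF4EBP1 was lower at 6 h than at 24 h. At 1 h and 24 h of HGF and in ITGB4 cells 0 of 45 probes were called against untreated cells.

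**Figure D1:**
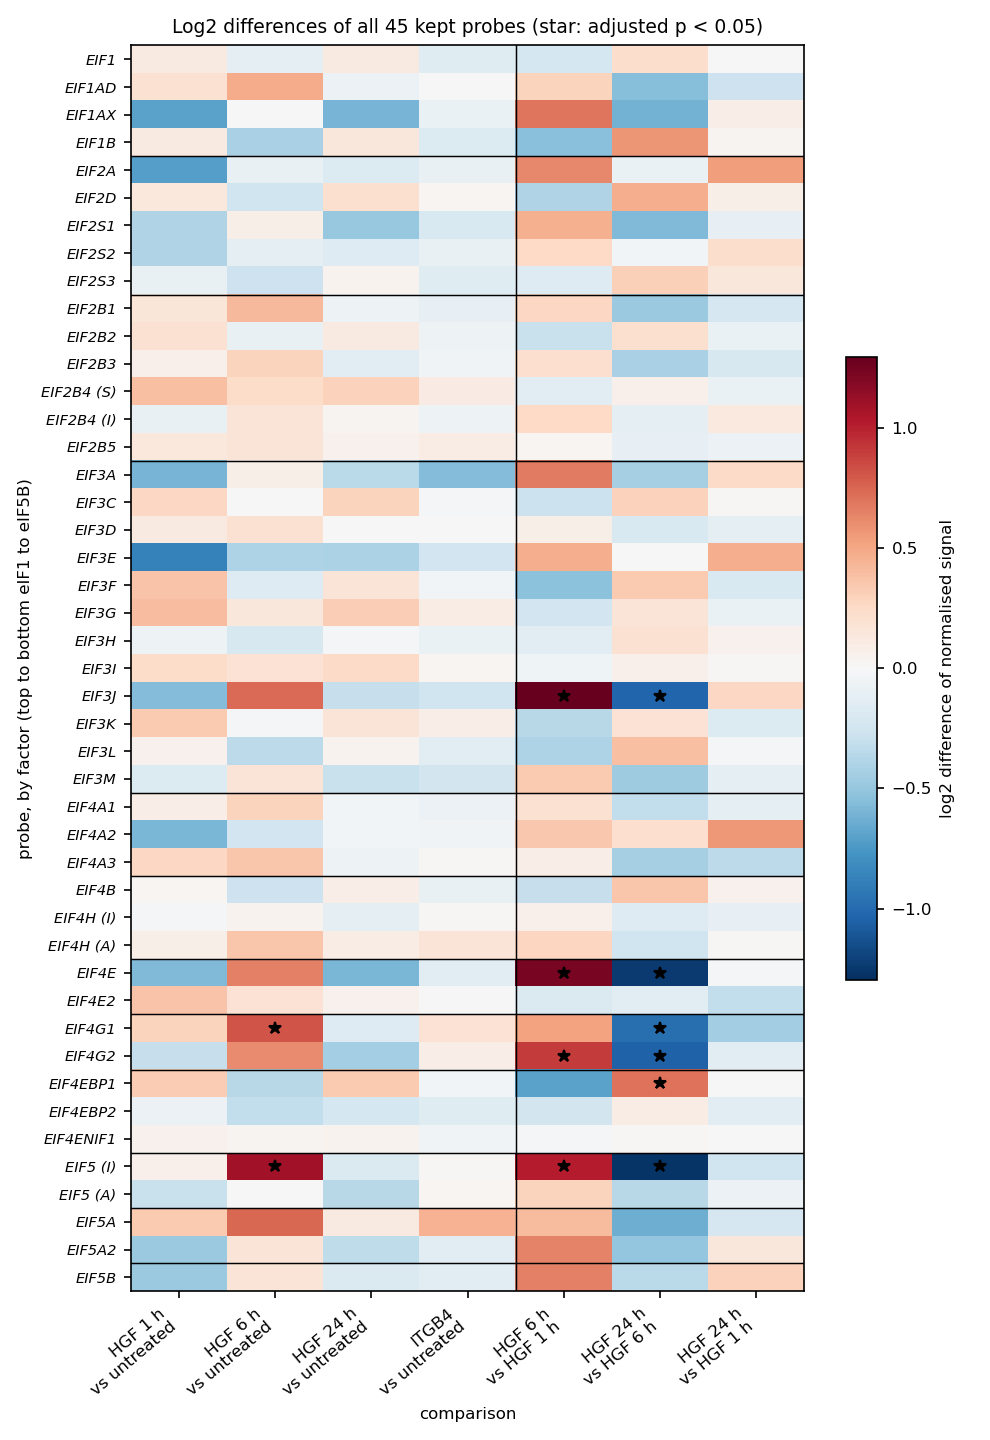
Log2 difference of normalised signal for each of the 45 kept initiation factor probes (rows, grouped by factor, letters in brackets mark different probes of a gene) in 7 comparisons (columns), with red for higher and blue for lower in the condition named on top. Stars mark the 12 calls, which fell in the columns for HGF 6 h vs untreated (2), HGF 6 h vs HGF 1 h (4) and HGF 24 h vs HGF 6 h (6).

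At 6 h of HGF, 2 of 45 probes rose and 0 fell against untreated cells. Over all probes 1.9% were called, with 0.97% higher. EIF5, which makes eIF2 hydrolyse its GTP when the start codon is found, had signals of 1359.8 and 1261 at 6 h, against 646.6 and 590.7 in untreated cells. It was higher on both 6 h arrays than on any of the other 8 arrays, and the difference was 1.08 ± 0.24 (2.12-fold, adjusted p = 0.0393). EIF4G1, the scaffold that joins EIF4E, EIF4A and the poly(A)-binding protein, had signals of 1811 and 1897 at 6 h, against 1029.8 and 1084 in untreated cells. Its difference was 0.81 ± 0.17 (1.75-fold, adjusted p = 0.0338).

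Both 6 h calls were close to the threshold. They were lost without either untreated array, either 1 h array or either 6 h array, with differences of 1.02 to 1.15 (adjusted p = 0.0618 to 0.196) for EIF5 and 0.78 to 0.85 (adjusted p = 0.056 to 0.246) for EIF4G1. Within the low-score and the high-score arrays the differences were 1.07 and 1.09 for EIF5 and 0.81 and 0.81 for EIF4G1.

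EIF5 had another kept probe, marked in its ID for all isoforms, that did not share the rise. This probe read 82.9 and 108.4 at 6 h, against 101.7 and 88.8 in untreated cells, and was detected on 3 of 10 arrays. Its difference was 0.00 ± 0.18 (adjusted p = 0.997), so the rise was measured by the isoform probe alone, while this one lay at the detection limit. EIF4G1 likewise had 2 isoform probes that were detected on 0 of 10 arrays.

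The other large positive differences at 6 h did not pass the test. EIF5A, which helps ribosomes through difficult peptide bonds and at termination, had signals of 1216 and 1317 at 6 h, against 651.4 and 871.4 in untreated cells (0.75 ± 0.19, adjusted p = 0.061). EIF3J, a loosely bound eIF3 subunit, read 323.2 and 294.1 at 6 h, against 226.04 and 151.6 in untreated cells (0.74 ± 0.25, adjusted p = 0.156). Their 6 h arrays lay above both untreated arrays.

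EIF4E, which binds the mRNA cap, read 756.3 and 804.2 at 6 h, against 580.1 and 425.1 in untreated cells (0.65 ± 0.20, adjusted p = 0.11). EIF4G2, a relative of EIF4G1 that lacks the EIF4E binding site, read 2878.5 and 3075 at 6 h, against 2340.4 and 1629 in untreated cells (0.61 ± 0.24, adjusted p = 0.215). Again the 6 h arrays did not overlap the untreated ones. Without untreated replicate 2, the differences of EIF3J, EIF4E and EIF4G2 were 0.45, 0.43 and 0.35. Within the low-score and the high-score arrays they were 0.52 and 0.96 for EIF3J, 0.38 and 0.92 for EIF4E and 0.30 and 0.92 for EIF4G2.

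Over the 45 probes, the 6 h arrays were both above both untreated arrays for 17 (37.8%), against 20.7% of all probes, and both below for 9 (20%), against 23.9%. The median difference was 0.07, with 27 of 45 above 0, against a median of 0.01 and 52.4% above 0 over all probes. With 1 untreated or 6 h array left out at a time, the median over the initiation factors was between 0.025 and 0.10. The most negative differences that met the naming rule were those of EIF1B, a close relative of the scanning factor EIF1, the eIF3 subunit EIF3E and the inhibitor EIF4EBP1. EIF1B had signals of 2076 and 2066 at 6 h, against 3057 and 2514 in untreated cells (-0.42 ± 0.17, adjusted p = 0.24). EIF3E had 2361 and 2251 at 6 h, against 3369.5 and 2762 in untreated cells (-0.40 ± 0.24, adjusted p = 0.455).

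EIF4EBP1, which blocks EIF4E until mTOR phosphorylates it, had 1603 and 1554 at 6 h, against 1874 and 2199 in untreated cells (-0.36 ± 0.19, adjusted p = 0.392). None of these differences passed the test, although in each case both 6 h arrays were below both untreated arrays. Without untreated replicate 1, the differences of EIF1B and EIF3E were -0.28 and -0.26.

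**Figure D2:**
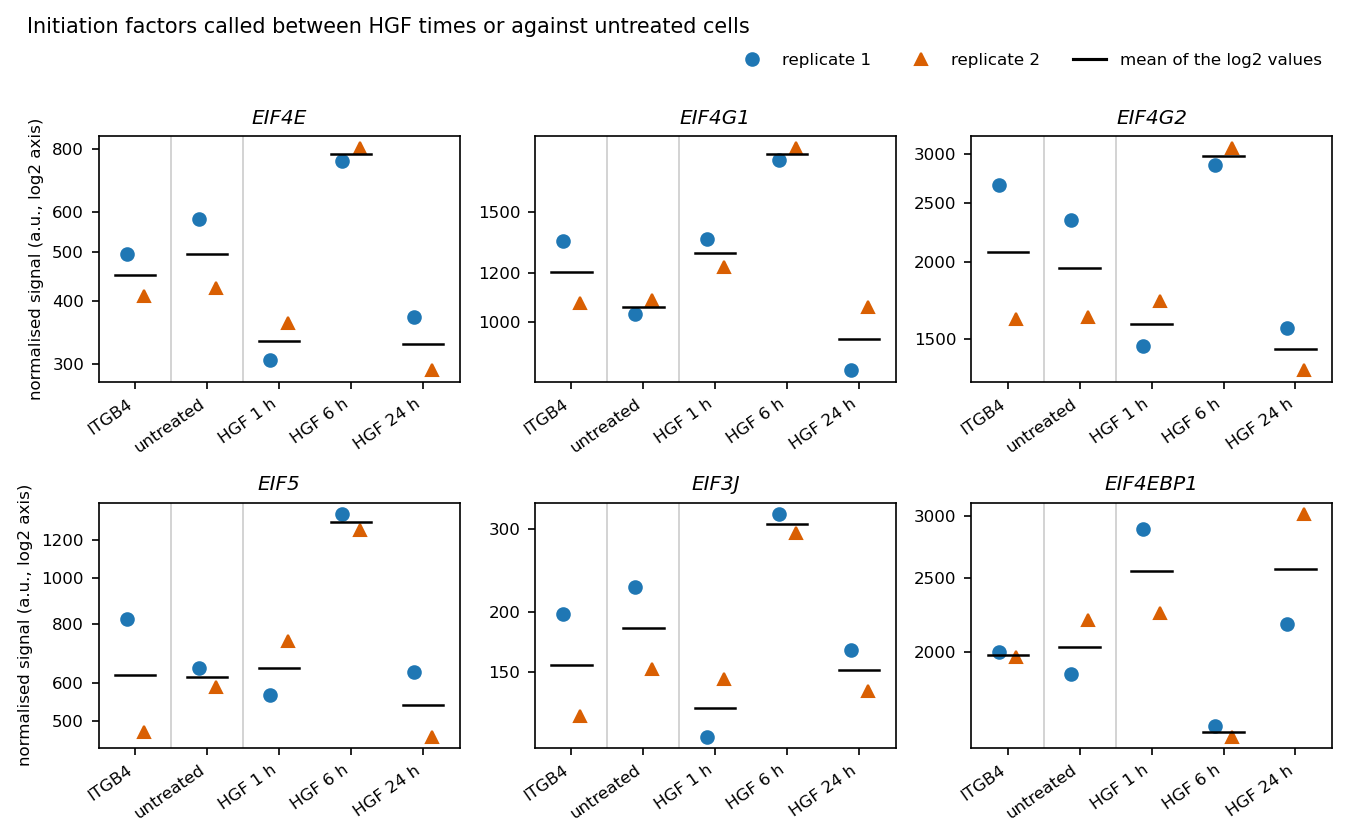
Normalised signal (arbitrary units, log2 axis) on each array of the 6 initiation factors called in any comparison, with groups along the horizontal axis, circles for replicate 1, triangles for replicate 2 and black lines for the mean of the log2 values. Both 6 h arrays lie above the other 8 arrays for EIF4E (756.3 and 804.2), EIF4G1, EIF4G2, EIF5 and EIF3J, and below them for EIF4EBP1 (1603 and 1554).

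Between the HGF times, more probes were called. Of 45 probes, 4 were higher at 6 h than at 1 h and 0 lower, against 4.67% called over all probes and 2.24% higher. EIF4E read 756.3 and 804.2 at 6 h, against 306.4 and 363.05 at 1 h (1.23 ± 0.20, 2.34-fold, adjusted p = 0.0083). EIF3J read 323.2 and 294.1 at 6 h, against 109.2 and 144.5 at 1 h (1.3 ± 0.25, 2.46-fold, adjusted p = 0.0153). For EIF5 the 1 h signals were 566.1 and 736.9 and the difference 1.02 ± 0.24 (adjusted p = 0.0326).

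For EIF4G2 the 1 h signals were 1457 and 1728 and the difference 0.91 ± 0.24 (adjusted p = 0.0471). EIF4G1, at 1356 and 1224 at 1 h, lay between, and its difference of 0.53 ± 0.17 did not pass (adjusted p = 0.105). For all 5, the 1 h and 6 h arrays did not overlap. Of 45 probes, 18 (40%) lay above without overlap at 6 h and 10 (22.2%) below, against 22.7% and 25.9% of all probes.

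The 6 h against 1 h calls did not all hold without a 1 h or 6 h array. Such a fit leaves 1 array in that group, which weakens the test for every probe. Without HGF 1 h replicate 1, EIF4E, EIF3J, EIF5 and EIF4G2 had differences of 1.09, 1.09, 0.82 and 0.78. Without HGF 6 h replicate 2 they were at 1.18, 1.37, 1.07 and 0.86. Without HGF 6 h replicate 1 they were at 1.27, 1.24, 0.96 and 0.95. EIF4G2 was at 1.03 without HGF 1 h replicate 2. Within the low-score and the high-score arrays the differences were 1.3 and 1.15 for EIF4E and 1.57 and 1.03 for EIF3J.

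Between 6 h and 24 h, 6 of 45 probes were called, 5 lower and 1 higher at 24 h, against 8.31% called over all probes (4.07% lower and 4.24% higher). EIF4E read 371.7 and 291.9 at 24 h, against 756.3 and 804.2 at 6 h (-1.24 ± 0.20, adjusted p = 0.00331). EIF5 read 632.6 and 463.7 at 24 h, against 1359.8 and 1261 at 6 h (-1.27 ± 0.24, adjusted p = 0.00714). EIF4G1 read 838.2 and 1056 at 24 h, against 1811 and 1897 at 6 h (-0.98 ± 0.17, adjusted p = 0.00521). These 3 remained called without each of the 10 arrays in turn, with the highest adjusted p at 0.0331 for EIF4E, 0.0426 for EIF5 and 0.0479 for EIF4G1.

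EIF4G2 fell by 1.05 ± 0.24 (adjusted p = 0.0163), with 1559 and 1331 at 24 h against 2878.5 and 3075 at 6 h. EIF3J fell by 1.03 ± 0.25 (adjusted p = 0.0239), with 166.6 and 136.6 at 24 h against 323.2 and 294.1 at 6 h. Both were lost without HGF 6 h replicate 1 (-1.09 and -0.97), without HGF 6 h replicate 2 (-0.998 and -1.11) and without HGF 24 h replicate 2 (-0.93 and -0.89). Over the alternative settings the EIF3J difference ran from -1.62 to -0.78.

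EIF4EBP1 was the only member that rose, with 2174 and 3023.5 at 24 h against 1603 and 1554 at 6 h (0.70 ± 0.19, 1.62-fold, adjusted p = 0.0397). Its call was lost without either ITGB4 array (0.70 and 0.70), either 6 h array (0.72 and 0.68) or HGF 24 h replicate 2 (0.46), and the difference was 0.44 for the low-score and 0.96 for the high-score arrays. Against 1 h the 6 h level was also lower, short of the threshold (-0.69 ± 0.19, adjusted p = 0.057).

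**Figure D3:**
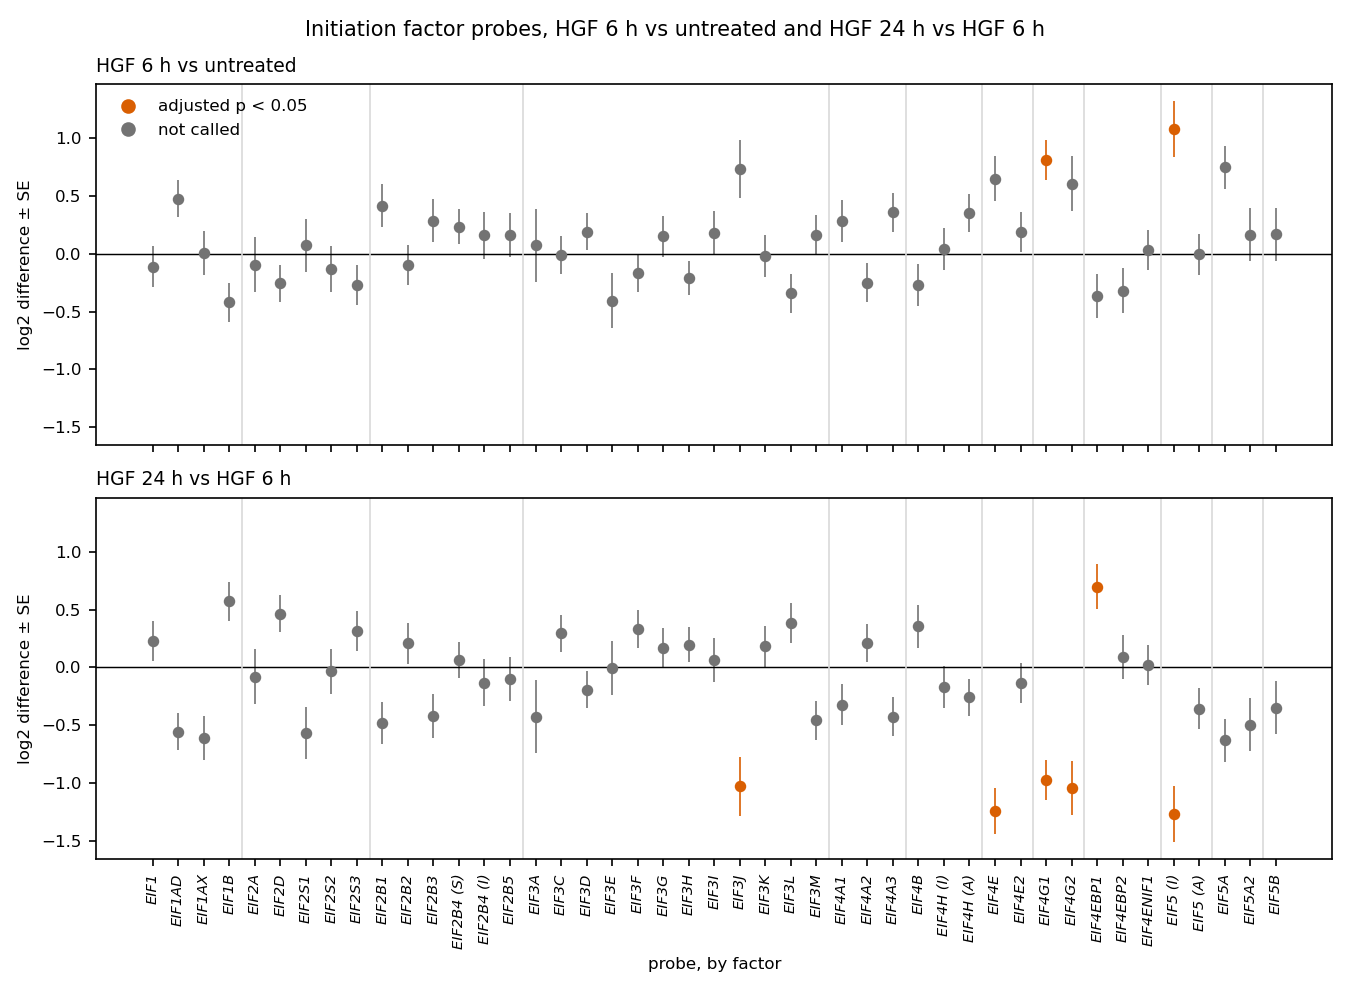
Log2 difference with its standard error for the 45 initiation factor probes, grouped by factor, for HGF 6 h vs untreated (upper panel) and HGF 24 h vs HGF 6 h (lower panel), with called probes in orange. EIF5 (1.08) and EIF4G1 (0.81) were called in the upper panel, and in the lower panel EIF4E, EIF4G1, EIF4G2, EIF5 and EIF3J were lower and EIF4EBP1 (0.70) higher at 24 h. The 2 panels share the 6 h arrays.

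The 5 called factors that were highest at 6 h lie on different chromosomes. The promoter table of RefSeq (build GRCh38.p14, 250 bases before to 50 after a gene's start) had an entry for 35 of the 42 genes. EIF2S2, EIF3A, EIF3E, EIF3G, EIF3H, EIF3L and EIF4EBP1 had none. The most upstream window of each gene was searched on both strands, in the 250 bases before the start, for the E-box CACGTG, to which MYC, MITF and related factors bind. The ATF4 type element TGATGCAA and the cyclic AMP response element TGACGTCA were also searched. The last 100 bases before the start are shown for these 5 factors, whose values the time course turns on, on the gene's strand, with the E-box in capitals.
EIF4E (chr4:98929134-98929233, minus strand): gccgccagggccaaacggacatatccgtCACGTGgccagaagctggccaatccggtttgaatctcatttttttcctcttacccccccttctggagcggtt
EIF4G1 (chr3:184314506-184314605, plus strand): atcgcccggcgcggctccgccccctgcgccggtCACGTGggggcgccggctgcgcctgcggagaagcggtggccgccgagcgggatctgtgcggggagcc
EIF4G2 (chr11:10808927-10809026, minus strand): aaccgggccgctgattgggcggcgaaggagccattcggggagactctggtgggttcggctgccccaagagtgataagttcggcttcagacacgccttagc
EIF5 (chr14:103334137-103334236, plus strand): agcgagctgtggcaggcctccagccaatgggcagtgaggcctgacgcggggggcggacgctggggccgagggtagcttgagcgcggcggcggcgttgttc
EIF3J (chr15:44537047-44537146, plus strand): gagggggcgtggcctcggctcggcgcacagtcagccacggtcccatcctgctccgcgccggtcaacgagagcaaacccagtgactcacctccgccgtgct

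EIF4E holds an E-box that begins 72 bases before the start and a further one at 225 bases. EIF4G1 holds them at 67 and 144 bases. The windows of EIF4G2, EIF5 and EIF3J hold no match. Of the 35 genes 10 (28.6%) hold an E-box in the 250 bases, among them EIF1B, EIF3F and EIF4B, against 6.46% of 27305 genes in the table. The genes of the table were not limited to those detected here, so the shares are of unlike sets. The ATF4 type element is in 0 of the 35 windows (0.828% of all) and the cyclic AMP response element in 0 (1.75% of all). A match is a run of letters and not a measured binding site.

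At 1 h of HGF, 0 of 45 probes were called, as were 0% of all probes. At an unadjusted p under 0.05 the limma fit gave 10 of 45 (22.2%), against 13.5% of all probes. The 1 h arrays were both below both untreated arrays for 11 probes (24.4%) and both above for 14 (31.1%), against 20.1% and 24.1% of all probes. The most negative difference was that of EIF3E, with 1441 and 1917 at 1 h, against 3369.5 and 2762 in untreated cells (-0.88 ± 0.24, adjusted p = 0.196).

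EIF2A, which can deliver the initiator tRNA without eIF2, had 855.8 and 1213 at 1 h, against 1973 and 1416 in untreated cells (-0.71 ± 0.24, adjusted p = 0.243). EIF1AX, the scanning factor eIF1A, had 119.7 and 173.7 at 1 h, against 234.3 and 230.8 in untreated cells (-0.69 ± 0.19, adjusted p = 0.202). In all 3 the 1 h arrays were the lower ones and did not overlap the untreated arrays. Without HGF 1 h replicate 1, the differences of EIF2A and EIF1AX were -0.46 and -0.42. Within the low-score and the high-score arrays they were -1.23 and -0.53 for EIF3E, -1.20 and -0.22 for EIF2A and -0.97 and -0.41 for EIF1AX.

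The largest positive differences at 1 h were smaller. EIF3G, the RNA-binding eIF3 subunit, had 2020 and 1745 at 1 h, against 1342 and 1506 in untreated cells (0.40 ± 0.17, adjusted p = 0.339). EIF2B4, the delta subunit of eIF2B, had 1317 and 1173 at 1 h, against 991.5 and 911.3 in untreated cells (0.39 ± 0.16, adjusted p = 0.306). EIF3F, an eIF3 core subunit, had 6874 and 6252 at 1 h, against 4687 and 5475 in untreated cells (0.37 ± 0.17, adjusted p = 0.353). The other EIF2B4 probe, for an isoform, had a difference of -0.10 ± 0.20 at 1 h, so the probes disagreed in sign.

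At 24 h of HGF, 0 of 45 probes and 0% of all probes were called against untreated cells, with 3 of 45 (6.67%) at an unadjusted p under 0.05, against 5.71% of all probes. Arrays without overlap were seen for 5 probes above (11.1%) and 8 below (17.8%), against 14.9% and 14.7% of all probes. EIF1AX had the most negative difference, with 158.8 and 147 at 24 h, against 234.3 and 230.8 in untreated cells (-0.61 ± 0.19, adjusted p = 0.857). EIF4E was next, with 371.7 and 291.9 at 24 h, against 580.1 and 425.1 in untreated cells (-0.59 ± 0.20, adjusted p = 0.857). EIF2S1, the eIF2 subunit that stress kinases phosphorylate, had 235.6 and 162.6 at 24 h, against 325.5 and 233.9 in untreated cells (-0.50 ± 0.23, adjusted p = 0.857), and its groups overlapped. Without untreated replicate 1, the differences of EIF4E and EIF2S1 were -0.37 and -0.26, and without HGF 24 h replicate 1 or replicate 2 that of EIF2S1 was -0.76 or -0.23.

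The largest positive differences at 24 h were those of EIF4EBP1 (0.34 ± 0.19), EIF3G (0.32 ± 0.17) and EIF2B4 (0.30 ± 0.16), each with adjusted p = 0.857. Without HGF 24 h replicate 2, EIF4EBP1 and EIF3G were at 0.099 and 0.12, and without HGF 24 h replicate 1 at 0.57 and 0.52. EIF4EBP1 was at 0.22 without untreated replicate 1. Between 24 h and 1 h, 0 of 45 probes and 0% of all probes were called, and 3 of 45 (6.67%) had an unadjusted p under 0.05, against 6.33% of all probes. The levels of EIF4E at 24 h and at 1 h differed by -0.02 ± 0.20.

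In ITGB4 cells 0 of 45 probes were called, and 0.00713% of all probes, which is 1 probe, ITGB4 itself. At an unadjusted p under 0.05 the limma fit gave 1 of 45 (2.22%), against 0.835% of all probes. This was EIF5A, with 1170 and 907.1 in ITGB4 cells, against 651.4 and 871.4 in untreated cells (0.45 ± 0.19, adjusted p = 1). Its difference was 0.24 without untreated replicate 1 and 0.27 without ITGB4 replicate 1. Arrays lay above without overlap for 2 probes (4.44%) and below for 5 (11.1%), against 13.6% and 12.1% of all probes. The median difference was -0.05, with 14 of 45 above 0, against a median of 0.00 and 50% above 0 over all probes. Both ITGB4 arrays were high-score arrays, while untreated replicate 1 was a low-score array. Without untreated replicate 1 the median over the initiation factors was 0.013, so its sign turned on that array.

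EIF4G1 (0.19 ± 0.17) and EIF4H, a cofactor of the helicase (0.17 ± 0.16), followed, both with adjusted p = 1. The most negative differences were those of EIF3A, the largest scaffold subunit of eIF3 (-0.57 ± 0.32), EIF3J (-0.26 ± 0.25) and EIF3E (-0.25 ± 0.24), again with adjusted p = 1. With 1 untreated or ITGB4 array left out at a time, EIF4G1 was between 0.02 and 0.35, EIF4H between 0.02 and 0.33, EIF3E between -0.45 and -0.06, and EIF3J between -0.61 and 0.10, so its sign changed. EIF3A read 1924 and 981.3 in ITGB4 cells, against 2214 and 1867 in untreated cells, so ITGB4 replicate 2 lay apart from the other 3 arrays. Without that array the difference was -0.08, without ITGB4 replicate 1 it was -1.05, and in the deposited value table it was 0.21.

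EIF6, which keeps the ribosomal subunits apart and was also described as a protein that binds the cytoplasmic tail of integrin beta-4, had 1 probe. It was detected on 0 of 10 arrays, with scanner intensities of 47.4 to 68.8. No level of EIF6 RNA can be given from it. Also not detected on any array were EIF4EBP3, the isoform probe of EIF3B, the third EIF5 probe, 2 isoform probes of EIF4G1 and 1 Y-linked factor. At the edge of the rule, EIF4ENIF1, the EIF4E transporter, was detected on 1 array (70.3 to 89.6), and an EIF4H isoform probe and the EIF5 probe for all isoforms on 3 arrays. The other 42 kept probes were detected on all 10.

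By factor, the subunits of a complex lay on both sides of 0. The 12 eIF3 subunits ranged from -0.40 (EIF3E) to 0.74 (EIF3J) at 6 h, with 6 above and 6 below 0 and a median of 0.03. At 1 h they ranged from -0.88 to 0.40, and EIF3J was the only one called in any comparison. The 6 eIF2B probes stayed within -0.13 and 0.42 in the 4 comparisons with untreated cells, with 0 called. Of these, EIF2B1 was highest at 6 h, with 523.3 and 625.9, against 440.9 and 416.5 in untreated cells (0.42 ± 0.18, adjusted p = 0.284).

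The 5 probes of eIF2 and related factors ranged from -0.27 to 0.07 at 6 h, with EIF2S1 at 331.2 and 254.7, against 325.5 and 233.9 in untreated cells (0.07 ± 0.23, adjusted p = 0.94). At 1 h 4 of the 5 were below 0. The probes with an EIF1 symbol ranged from -0.42 (EIF1B) to 0.48 (EIF1AD) at 6 h, with 2 of 4 above 0.

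Among the helicases, EIF4A1, the main helicase of eIF4F, had 8402 and 9668 at 6 h, against 7102 and 7705 in untreated cells (0.28 ± 0.18, adjusted p = 0.509, and 0.18 without HGF 6 h replicate 2). Its paralog EIF4A2 had 3117.5 and 3260 at 1 h, against 5056 and 4585 in untreated cells (-0.59 ± 0.16, adjusted p = 0.202), outside the naming rule and chosen after its values were seen. EIF4A1, EIF4A2 and EIF4A3 were between -0.07 and -0.03 at 24 h. The helicase cofactors EIF4B and EIF4H were between -0.27 and 0.36 in the comparisons with untreated cells.

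The difference between the 2 cap-binding proteins was not tested. EIF4E2, which binds the cap without joining eIF4F, had differences of 0.37, 0.19 and 0.05 at 1 h, 6 h and 24 h, beside -0.57, 0.65 and -0.59 for EIF4E. At 1 h, the low-score and the high-score arrays gave 0.66 and 0.09 for EIF4E2 and -0.92 and -0.23 for EIF4E. The 2 scaffolds EIF4G1 and EIF4G2 were both above 0 at 6 h (0.81, called, and 0.61, not called). The inhibitors EIF4EBP1 and EIF4EBP2 were both below 0 at 6 h (-0.36 and -0.32) without a call. Within the low-score and the high-score arrays EIF4EBP1 was at -0.23 and -0.50. EIF4EBP2 was at -0.70 and 0.06, so its sign differed between the sets. EIF5A2, a paralog of EIF5A, was at -0.48 at 1 h and 0.16 at 6 h, and EIF5B, which joins the ribosomal subunits, at -0.48 and 0.17, with 0 called.

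Other genes of translation gave a setting for these values. Of 17 measured genes of elongation and termination, 0 were called at 6 h against untreated cells, beside 1.9% of all probes. At 24 h against 6 h, 3 were lower, beside 4.07% of all probes. These were ABCE1, which splits ribosomes after termination (-1.28 ± 0.30, adjusted p = 0.0182), the release factor ETF1 (-0.67 ± 0.18, adjusted p = 0.0369) and MTRF1L, a mitochondrial release factor (-0.65 ± 0.17, adjusted p = 0.031). The list had medians of 0.00 at 6 h and -0.09 at 24 h against 6 h, beside 0.01 and 0.00 over all probes. ABCE1 and MTRF1L were lost without either 6 h array or HGF 24 h replicate 2 (ABCE1 -1.43 to -0.90, MTRF1L -0.72 to -0.47), and ETF1 also without either ITGB4 or 1 h array (-0.72 to -0.48 over all of these).

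Of 16 measured partners of the cap complex, 2 were higher at 6 h than at 1 h and lower again at 24 h. Over all probes 2.24% were higher at 6 h than at 1 h and 4.07% lower at 24 h than at 6 h. The RNA helicase DDX3X had 520.3 and 546.6 at 1 h, 1094 and 1072 at 6 h and 584.6 and 445.3 at 24 h (1.02 ± 0.22, adjusted p = 0.0225 at 6 h over 1 h). The poly(A) binding partner LARP4 had 150.8 and 180.9 at 1 h, 271.9 and 304.6 at 6 h and 157.5 and 162.9 at 24 h (0.80 ± 0.17, adjusted p = 0.0221). Against 6 h the 24 h differences were -1.09 ± 0.22 for DDX3X (adjusted p = 0.00908) and -0.85 ± 0.17 for LARP4 (adjusted p = 0.00903). At 6 h over 1 h, DDX3X was lost without each of the 1 h and 6 h arrays (0.98 to 1.06) and LARP4 without HGF 1 h replicate 1, HGF 6 h replicate 1 or HGF 6 h replicate 2 (0.67, 0.89 and 0.72). At 24 h against 6 h, both were lost without HGF 6 h replicate 2 (-1.10 and -0.77), and DDX3X without HGF 24 h replicate 2 (-0.89).

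Of 19 measured kinases, phosphatases and mTOR pathway genes, 1 fell and 0 rose at 6 h against untreated cells. Against 1 h, 3 were lower at 6 h. Over all probes 0.935% were lower and 0.97% higher at 6 h against untreated cells, and 2.43% lower at 6 h than at 1 h. DEPTOR, an mTOR inhibitor, had 125.6 and 137.6 at 6 h, against 316.4 and 307.1 in untreated cells (-1.25 ± 0.17, 0.422-fold, adjusted p = 0.00773). DDIT4, an inhibitor of mTOR complex 1 that stress induces, had 227.5 and 190.1 at 6 h, against 628.6 and 481.4 at 1 h (-1.40 ± 0.23, adjusted p = 0.00933). EIF2AK1, the heme-regulated eIF2 kinase, had 288.2 and 309.7 at 6 h, against 508.1 and 461.4 at 1 h (-0.70 ± 0.18, adjusted p = 0.0492). At 24 h DEPTOR (1.23 ± 0.17, adjusted p = 0.00197) and DDIT4 (1.23 ± 0.23, adjusted p = 0.00727) were higher than at 6 h.

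Of these, DEPTOR at 24 h against 6 h remained called without each array in turn (highest adjusted p = 0.016). Against untreated cells it was lost without untreated replicate 2 (-1.26), HGF 6 h replicate 1 (-1.19) or HGF 6 h replicate 2 (-1.32), and against 1 h without HGF 1 h replicate 1 (-1.12) or HGF 6 h replicate 1 (-1.05). DDIT4 was lost at 6 h against 1 h without HGF 1 h replicate 1 (-1.20) or HGF 6 h replicate 2 (-1.28), and at 24 h against 6 h without the last of these (1.10). EIF2AK1 was lost without each untreated, ITGB4, 1 h or 6 h array (-0.77 to -0.62).

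DENR, MCTS1 and DHX29, initiation proteins without an EIF symbol, had 0 calls in the 7 comparisons. A melanocyte marker was also called. MITF, which binds the E-box, had 1008 and 769.2 at 6 h, against 1702 and 1971 in untreated cells (-1.06 ± 0.23, adjusted p = 0.0361). It had 3 probes, and the values are those of the brightest kept one. All 7 measured markers of the list were below 0 at 6 h, with a median of -0.49, while 52.4% of all probes were above 0. The call of MITF was lost without any 1 of the untreated, ITGB4, 1 h and 6 h arrays (-1.25 to -0.86). Its part in the changes of the initiation factors was not tested.

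**Figure D4:**
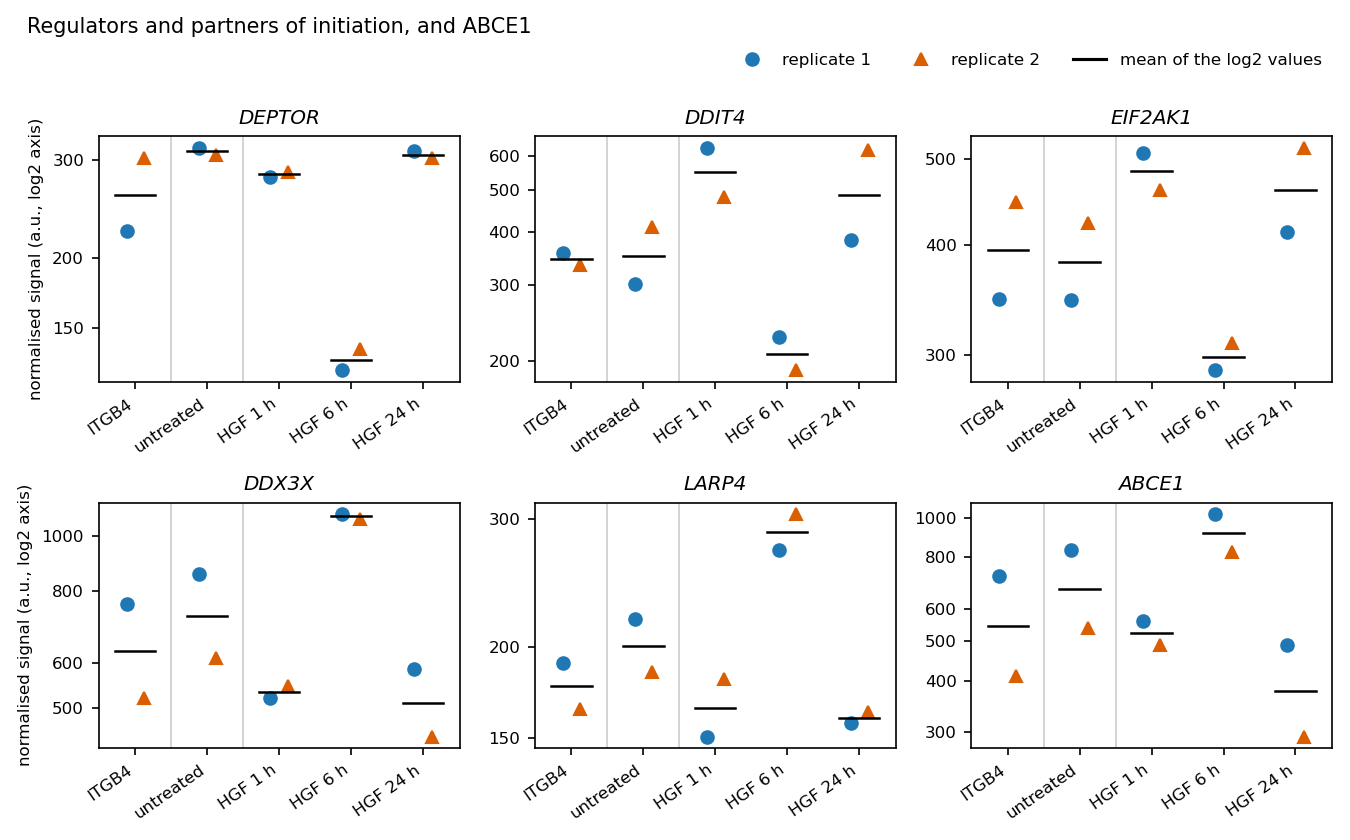
Normalised signal (arbitrary units, log2 axis) on each array of 3 regulators (DEPTOR, DDIT4 and EIF2AK1), 2 partners of the cap complex (DDX3X and LARP4) and ABCE1, with groups along the horizontal axis, circles for replicate 1, triangles for replicate 2 and black lines for the mean of the log2 values. Both 6 h arrays lie below the other 8 for DEPTOR (125.6 and 137.6), DDIT4 and EIF2AK1, and above them for DDX3X (1094 and 1072) and LARP4.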

How the data were processed

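Total RNA of 10 samples was measured on the Illumina Human-8 V1 BeadChip, with 1 array per sample. The authors deposited a scanner table per array, written by BeadStudio 1.5.1.3 per the labels, with the intensity of each probe and a detection score from 0 to 1, and a value table of background subtracted, rank-invariant normalised intensities. The deposited intensities used here were not normalised. Of 24136 probes, 22 controls and 9 without an intensity on at least 1 array were left out. Probes with a detection score of 0.99 or more on at least 1 array, 14018 of 24105 (58.2%), were kept. Intensities were quantile normalised, put on the log2 scale and fitted with limma 3.58.1 in R 4.3.3 as 5 group means over all 10 arrays, with 5 residual and 8.16 prior degrees of freedom. The number of arrays limits the precision. The test was run on simulated data first.

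Gene symbols came from the platform annotation (18758 of 24105 probes with a symbol), of which 18688 were matched by Entrez number to a current gene table. The initiation factors, the lists of other genes, the motifs and the rule for named genes were chosen with earlier results of these data known. Named were each called factor, the 3 largest rises and falls of each comparison with untreated cells among factors detected on both arrays of both groups, and EIF2S1, EIF4E, EIF4G1, EIF4A1, EIF4EBP1, EIF5A, EIF5 and EIF6. Alternatives were other normalisations, filters, blocks, an unmoderated test and each array left out.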

Additional observations from a re-analysis of the deposited data

Results flagged for a closer look

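The difference from untreated cells changed between HGF times for 6 factors, by the test of the difference between the times itself. Against 1 h, the 6 h level was higher for EIF3J (1.3), EIF4E (1.23), EIF5 (1.02) and EIF4G2 (0.91). Against 6 h, the 24 h level was lower for EIF5 (-1.27), EIF4E (-1.24), EIF4G2 (-1.05), EIF3J (-1.03) and EIF4G1 (-0.98), and higher for EIF4EBP1 (0.70). With 2 arrays a group, no group was large enough to look for outlying arrays.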

How the results depend on the processing

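The 12 calls of initiation factors kept their direction in all 228 pairs of a call and an alternative with a test (19 alternatives each), and passed the threshold in 160. No call changed sign, but alternatives that change only the filter, the block or the test leave the called differences unchanged. They move little without an array of a group not compared, and the 12 calls share the 6 h arrays. A compared group that loses an array is left with 1, which weakens the test for every probe. Leaving out 1 array at a time gave 0 to 3 called probes for HGF 6 h vs untreated (2 with all arrays), 0 to 6 for HGF 6 h vs HGF 1 h (4) and 3 to 7 for HGF 24 h vs HGF 6 h (6). For HGF 6 h vs untreated, 1 was called with cyclic loess, 1 without the detection filter, and 0 each in the value table, with signals floored at 179 and by the unmoderated test. For HGF 6 h vs HGF 1 h, 2 were called without the filter, 0 with the floor and 0 by the unmoderated test. For HGF 24 h vs HGF 6 h, 2 were called with the floor and 0 by the unmoderated test. With the array background as a block, 4, 10 and 15 probes were called in these 3 comparisons, beside 7.6%, 12.1% and 15.4% of all probes. The value table moved the median of all probes to 0.174 for HGF 6 h vs untreated and 0.139 for HGF 6 h vs HGF 1 h, with 0.29 and 0.22 over the initiation factors. The within-background values have no test and so no count of calls.

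The labels give only a replicate number, so the duplicates are not known to be paired. The deviations of same-numbered arrays correlated at -0.06 to 0.66 between groups. With the replicate number as a block, the calls numbered 3 for HGF 1 h, 5 for HGF 6 h vs untreated, 11 for HGF 6 h vs HGF 1 h and 14 for HGF 24 h vs HGF 6 h, and 0 in the other 3 comparisons. Over all probes the same block called 3.05%, 7.77%, 13.3% and 16% in the first 4 of these. The cause of these changes was not tested. With 2 arrays a group and signals near the detection limit, small differences of dim probes such as EIF4ENIF1 were not detectable.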
